A study of Mus musculus with 12 samples.

Results

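The genes described here make serine (Phgdh, Psat1 and Psph), run the mitochondrial branch of folate one-carbon metabolism (Shmt2, Mthfd2, Mthfd1l and Aldh1l2), make proline (Aldh18a1 and Pycr1) and make asparagine (Asns). They were followed through H3K27ac, the acetylated form of lysine 27 on histone H3, which marks promoters and enhancers in use and was measured by sequencing immunoprecipitated chromatin. Regions were taken by gene name in the deposited table: 24 of its 36387 regions were named after 7 of the 10 genes. No region analysed here carried the name of Phgdh, Aldh1l2 or Pycr1. Of the 24 regions, 8 lay within 1 kb of a transcription start site by the deposited annotation and are called promoter regions, out of 15980 in the table.

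The 2 groups were regenerating mouse livers labelled Cox10-/- and wild-type, with 3 H3K27ac libraries each. Cox10 encodes an enzyme of heme A synthesis that cytochrome c oxidase, the last complex of the respiratory chain, needs for its assembly. All mice carried a conditional (floxed) Cox10 allele, received an AAV8 vector with Cre or with GFP, had 70% of the liver removed 4 weeks later, and gave up the regrowing liver on day 2. The protocol names both vectors without tying each to a genotype, and age and sex do not appear in the sources used here. AAV8 reaches mainly hepatocytes, so other liver cells may keep the allele, and the whole tissue was used. The labels number the libraries but name no animals, so each p-value measures the spread between libraries, which may be technical.

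The regions held 3282878 to 3385453 reads per library in Cox10-/- livers and 3897454 to 4187377 in wild-type livers. Values are normalised reads per region, that is, reads divided by 1 size factor per library as the authors deposited them. On this deposited scale the median region was lower in Cox10-/- livers by a log2 fold change of -1.04, which is 2.06-fold. The sources used here do not say how the size factors were set, so each change is also given on a centred scale, after subtracting the median of log2(value + 1) in each library. Centring removed a shift of 1.05 (log2). Changes were tested with limma across all 36387 regions, and a region was called where the Benjamini-Hochberg adjusted p was under 0.05. The 1 region of Cox10 itself lies in intron 5 of 6 (chr11:63977336-63977787, mm10). It held 57.4 ± 10.3 normalised reads in Cox10-/- livers and 15.1 ± 2.54 in wild-type livers (SD, n = 3 libraries each). These values do not check the deletion.

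Serine is built from an intermediate of glycolysis: Phgdh oxidises it, Psat1 adds an amino group and Psph removes the phosphate. In mitochondria Shmt2 moves a carbon unit from serine to tetrahydrofolate and leaves glycine, Mthfd2 oxidises that unit, Mthfd1l releases it as formate for use in the cytosol, and Aldh1l2 burns it to CO2 while making NADPH. Aldh18a1 turns glutamate into a precursor that Pycr1 reduces to proline, and Asns moves the amide nitrogen of glutamine onto aspartate. In mammals most of these genes are known targets of the transcription factor ATF4, which is made when amino acids are short or when the respiratory chain is impaired. The adult liver is known for the cytosolic branch of folate metabolism (Shmt1, Mthfd1 and Aldh1l1) more than for the mitochondrial one.

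Promoter regions of Asns, Mthfd2, Mthfd1l and Aldh18a1, and 1 of the 2 of Psat1, carried more H3K27ac in Cox10-/- livers while most promoter regions carried less. On the deposited scale 5 of the 8 promoter regions were higher, 2 were lower (Psph and Shmt2) and 1, the main promoter region of Psat1, was not called. Over all promoter regions 1.26% were called higher and 92.3% lower on that scale. In the same 5 promoter regions all 3 Cox10-/- libraries lay above all 3 wild-type libraries, as in 1.3% of all promoter regions, and in the same 2 all 3 lay below, as in 91.4%. The median change of the 8 was 0.60 (log2), against -0.87 over all promoter regions. After centring, 7 of the 8 were higher and 0 lower, against 42.2% higher and 18.9% lower of all promoter regions.

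The 16 other regions of these genes mostly fell, as most regions away from promoters did. On the deposited scale 13 were lower and 3 higher, beside 16970 lower and 1420 higher of all 20407 regions away from promoters. Their median was -1.10 (log2) against -1.28 over all regions away from promoters. Of all 24 regions 15 were lower and 8 higher, beside 87.2% lower and 4.46% higher of all regions. All 3 Cox10-/- libraries lay above all 3 wild-type libraries in 8 regions and below them in 14, beside 4.44% and 86.4% of all regions. With centring 11 of the 24 were higher and 3 lower, beside 33.6% higher and 32.4% lower. Of the 15 lower regions, 10 are intergenic regions named after Aldh18a1, and without them 5 of 14 were lower and 8 higher.

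**Figure D1:**
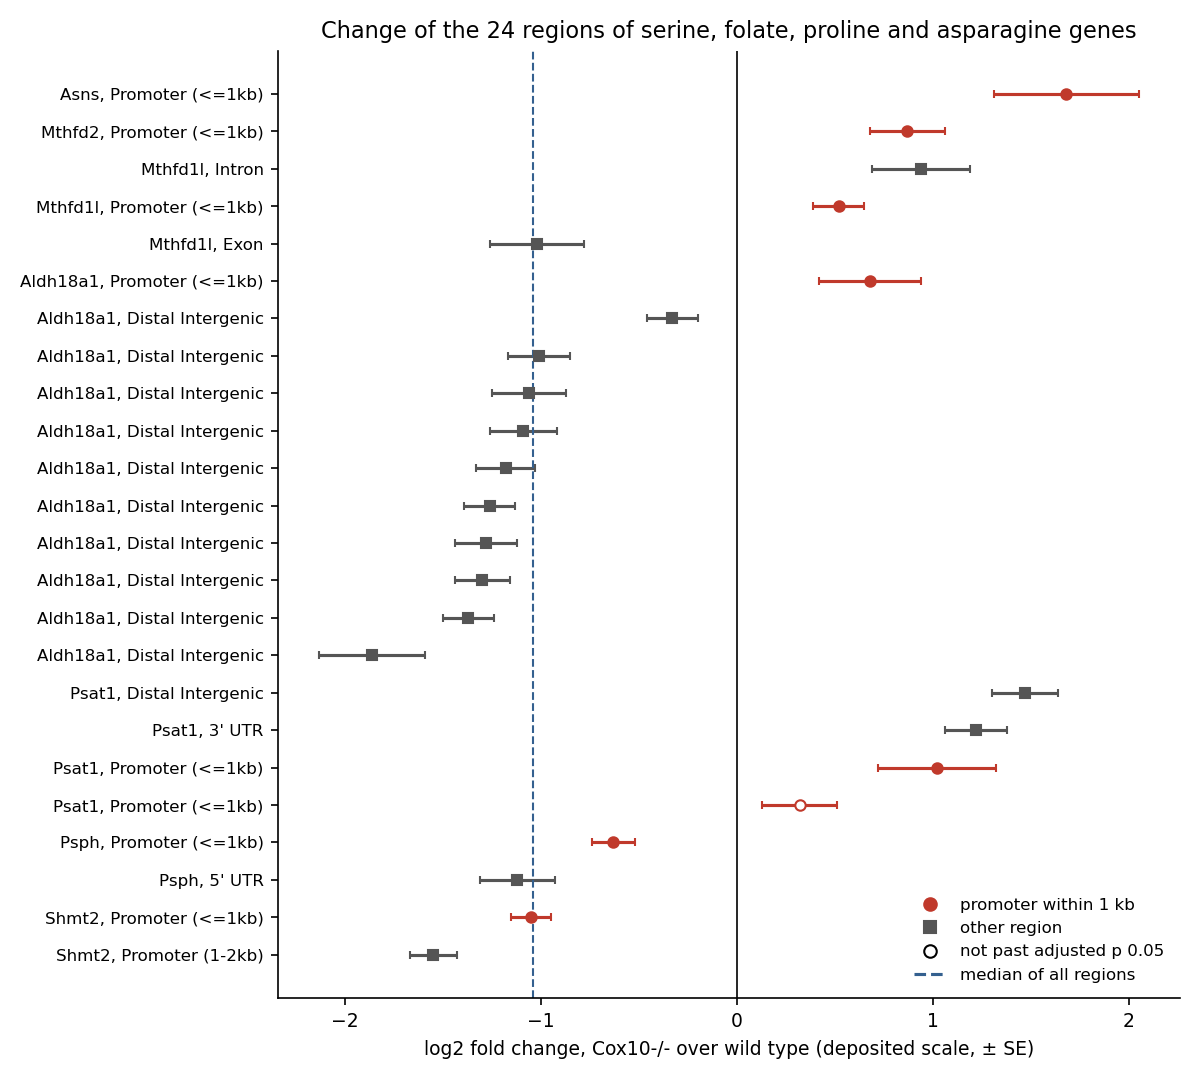
Each mark is the log2 fold change of 1 region, Cox10-/- over wild type on the deposited scale, with its standard error, for the 24 regions in rows grouped by gene. Promoter regions of Asns, Mthfd2, Mthfd1l, Aldh18a1 and Psat1 lie right of 0, those of Psph and Shmt2 left of it, and the 10 intergenic regions named after Aldh18a1 lie from -1.86 to -0.33, mostly near the median of all regions at -1.04. On the centred scale the promoter of Psph is higher and that of Shmt2 is at 0.00.

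The upstream sequences of the gene with the largest promoter gain in each of the 4 pathways, and of Shmt2, whose promoter region fell, are shown so that the letters near the start sites can be compared. Each is the 250 bases before a RefSeq start site on GRCm38.p6, the assembly that mm10 names, written 5′ to 3′ on the strand of the gene. For Psat1 the sequence before its first start site is shown, while its called promoter gain lay before the second. Capitals mark letters that matched a motif searched here, described after the values of each gene.
Asns (chr6:7693210-7693459, minus strand): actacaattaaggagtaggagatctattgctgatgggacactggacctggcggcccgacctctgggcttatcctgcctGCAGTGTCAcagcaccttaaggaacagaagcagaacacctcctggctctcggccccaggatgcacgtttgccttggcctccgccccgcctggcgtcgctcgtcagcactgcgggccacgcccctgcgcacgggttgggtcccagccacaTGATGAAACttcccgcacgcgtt
Mthfd2 (chr6:83317605-83317854, minus strand): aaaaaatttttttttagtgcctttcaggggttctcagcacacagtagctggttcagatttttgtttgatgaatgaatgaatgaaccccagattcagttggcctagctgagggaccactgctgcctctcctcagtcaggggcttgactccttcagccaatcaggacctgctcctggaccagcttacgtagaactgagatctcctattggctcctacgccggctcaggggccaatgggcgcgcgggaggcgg
Aldh18a1 (chr19:40588464-40588713, minus strand): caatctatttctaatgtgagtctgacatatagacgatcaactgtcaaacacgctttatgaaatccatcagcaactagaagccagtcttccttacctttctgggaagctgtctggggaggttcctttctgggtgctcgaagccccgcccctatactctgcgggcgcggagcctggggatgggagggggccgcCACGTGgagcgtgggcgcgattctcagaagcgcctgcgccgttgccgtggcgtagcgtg
Psat1 (chr19:15925060-15925309, minus strand): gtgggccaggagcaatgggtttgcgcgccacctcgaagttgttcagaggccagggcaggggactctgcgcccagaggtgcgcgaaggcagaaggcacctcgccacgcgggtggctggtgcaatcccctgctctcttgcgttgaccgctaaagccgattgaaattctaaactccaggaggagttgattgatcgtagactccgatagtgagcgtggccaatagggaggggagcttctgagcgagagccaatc
Shmt2 (chr10:127522445-127522694, minus strand): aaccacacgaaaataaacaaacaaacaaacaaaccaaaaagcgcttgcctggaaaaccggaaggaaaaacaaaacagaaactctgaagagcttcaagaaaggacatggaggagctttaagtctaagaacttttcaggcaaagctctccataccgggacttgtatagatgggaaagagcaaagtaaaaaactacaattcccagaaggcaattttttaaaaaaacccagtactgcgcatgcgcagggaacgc

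Asns had the largest promoter gain of the 7 genes with a promoter region. Its promoter region (chr6:7692662-7692880), which begins 329 bp after the RefSeq start site and thus beyond the sequence shown, held 24.6, 29.1 and 29.5 normalised reads in Cox10-/- livers, against 7.98, 8.22 and 7.67 in wild-type livers. These stand for 29, 36 and 39 reads in Cox10-/- libraries and 6 in each wild-type library, so the wild-type level rests on few reads. The groups did not overlap, and the change was 1.68 ± 0.37 (log2, SE; 3.2-fold; limma adjusted p = 1.0e-05) on the deposited scale and 2.73 on the centred one. By size of the increase it stood at place 22 among the 15980 promoter regions.

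Serine synthesis was represented by Psat1 and Psph, which differed. Psat1, the aminotransferase, had 4 regions. The strongest 2 lie at the far end of the gene on chromosome 19. The one past the end (chr19:15903902-15904618) held 114, 97.7 and 91.7 normalised reads in Cox10-/- livers, against 31.9, 37 and 38.3 in wild-type livers. Its change was 1.47 ± 0.17 (log2, SE; 2.77-fold; limma adjusted p = 1.4e-15), the largest of any region of these genes outside promoters. The neighbouring region in the 3′ UTR (chr19:15905079-15905816) held 119, 102 and 105 in Cox10-/- livers, against 49.2, 47.9 and 40.9 in wild-type livers, and its change was 1.22 ± 0.16 (log2, SE). In both, every Cox10-/- library was above every wild-type library.

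At the start of Psat1 the gain was smaller. RefSeq gives the gene 2 start sites. The promoter region just before the second (chr19:15924645-15924864) held 31.4, 24.2 and 37.1 normalised reads in Cox10-/- livers and 12, 12.3 and 20.4 in wild-type livers, a change of 1.02 ± 0.30 (log2, SE; limma adjusted p = 8.8e-04). The region before the first (chr19:15925224-15925564), which shares 86 bases with the sequence shown, held 62, 50.8 and 53 in Cox10-/- livers and 39.9, 37 and 57.5 in wild-type livers. There wild-type library 3 lay among the Cox10-/- libraries, and the change of 0.32 ± 0.19 (log2, SE) was not called (limma adjusted p = 0.0937). Without that library it was 0.51 (adjusted p = 0.0166), and on the centred scale it was called higher, at 1.37. The ratio of promoter regions to the other 2 regions of Psat1 was therefore lower in Cox10-/- libraries, with log2 values of -1.31, -1.40 and -1.11 against -0.64, -0.77 and -0.02 in wild-type libraries.

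Psph, the phosphatase of the last step, had no gain on the deposited scale. Its promoter region (chr5:129786512-129787250) held 131, 153 and 134 normalised reads in Cox10-/- livers and 218, 230 and 202 in wild-type livers. The fall of -0.63 ± 0.11 (log2, SE; limma adjusted p = 4.6e-08) was smaller than that of the median promoter, and on the centred scale its direction flips to 0.42, called higher (adjusted p = 9.6e-05). The promoter region of Cct6a, a chaperonin subunit read from the other strand, begins 111 bp away and changed by -0.62. A region in the 5′ UTR (chr5:129778895-129779148) held 33.1, 28.2 and 33.3 in Cox10-/- livers and 73.2, 78.1 and 58.8 in wild-type livers, and its centred change was -0.07.

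Phgdh, the first enzyme, had no region of its own. On the right of it on the chromosome, the nearest region analysed here was 42213 bp away, at the promoter of Zfp697. It changed by -0.56 (log2), called lower on the deposited scale and higher on the centred scale.

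Of the mitochondrial folate genes, Mthfd2 and Mthfd1l rose at their promoters while Shmt2 fell. The only region of Mthfd2 (chr6:83317269-83317598) begins 6 bp after its start site. It held 79.9, 65.4 and 56.1 normalised reads in Cox10-/- livers, against 43.9, 27.4 and 38.3 in wild-type livers. The lowest Cox10-/- library was above the highest wild-type library, and the change was 0.87 ± 0.19 (log2, SE; 1.83-fold; limma adjusted p = 7.7e-06), or 1.92 on the centred scale. Its neighbour on the right, the promoter of Mob1a 7890 bp away, changed by -1.23.

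Mthfd1l had 3 regions, which changed in both directions. The promoter region (chr10:3973149-3973738) held 127, 119 and 122 normalised reads in Cox10-/- livers and 82.5, 84.9 and 86.9 in wild-type livers. The groups were tight and apart, with a change of 0.52 ± 0.13 (log2, SE; 1.44-fold; limma adjusted p = 1.3e-04) and 1.58 on the centred scale. A region in intron 26 of 27 (chr10:4111723-4112056) held 39.9, 43.6 and 37.9 in Cox10-/- livers and 31.9, 16.4 and 16.6 in wild-type livers, a change of 0.94 ± 0.25 (log2, SE; adjusted p = 2.6e-04). A region at exon 2 of 28 (chr10:3978647-3978886) was lower instead, with 22.1, 19.4 and 22 in Cox10-/- livers and 38.6, 63 and 34.5 in wild-type livers. Centred, that region was at 0.03, the level of the median region.

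Shmt2 had the highest wild-type promoter level of the 7 genes per length, 306 normalised reads per kb on average, and fell with the bulk of the table. Its promoter region (chr10:127521357-127522402) held 178, 150 and 136 normalised reads in Cox10-/- livers and 301, 344 and 314 in wild-type livers. The change was -1.05 ± 0.10 (log2, SE; 2.07-fold lower; limma adjusted p = 1.0e-19), and on the centred scale it was 0.00. A second region 1 to 2 kb from a start site (chr10:127520416-127521197) held 77.3, 73.4 and 79.6 in Cox10-/- livers and 235, 234 and 210 in wild-type livers, and was lower on both scales (-1.55 and -0.49, log2).

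Aldh1l2 had no region of its own. The nearest regions were promoters of Washc4, 9855 bp away (log2 change -0.74), and of Nopchap1, 126623 bp away.

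Proline synthesis was represented by Aldh18a1, whose promoter rose while the intergenic regions named after it fell. The promoter region (chr19:40588143-40588344) begins 119 bp after the start site and held 41.6, 33.1 and 27.3 normalised reads in Cox10-/- livers and 25.3, 19.2 and 17.9 in wild-type livers. The groups did not overlap but came close, and the change of 0.68 ± 0.26 (log2, SE; 1.6-fold; limma adjusted p = 0.0113) was the least secure of the 5 gains. Without Cox10-/- library 1 it was 0.53 (adjusted p = 0.102), DESeq2 gave an adjusted p of 0.0509, and the authors' deposited table lists 0.0506. On the centred scale it was 1.73 (adjusted p = 8.9e-09).

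The 10 intergenic regions lie on chr19 29.7 to 73.6 kb past the end of Aldh18a1. A region away from promoters carries a gene name by the deposited annotation, and whether it acts on that gene was not tested. All 10 were called lower on the deposited scale, with a median of -1.22 (log2). After centring 2 of the 10 were lower and 1 higher. The ratio of the Aldh18a1 promoter to these regions was 3.48-fold higher in Cox10-/- libraries.

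**Figure D2:**
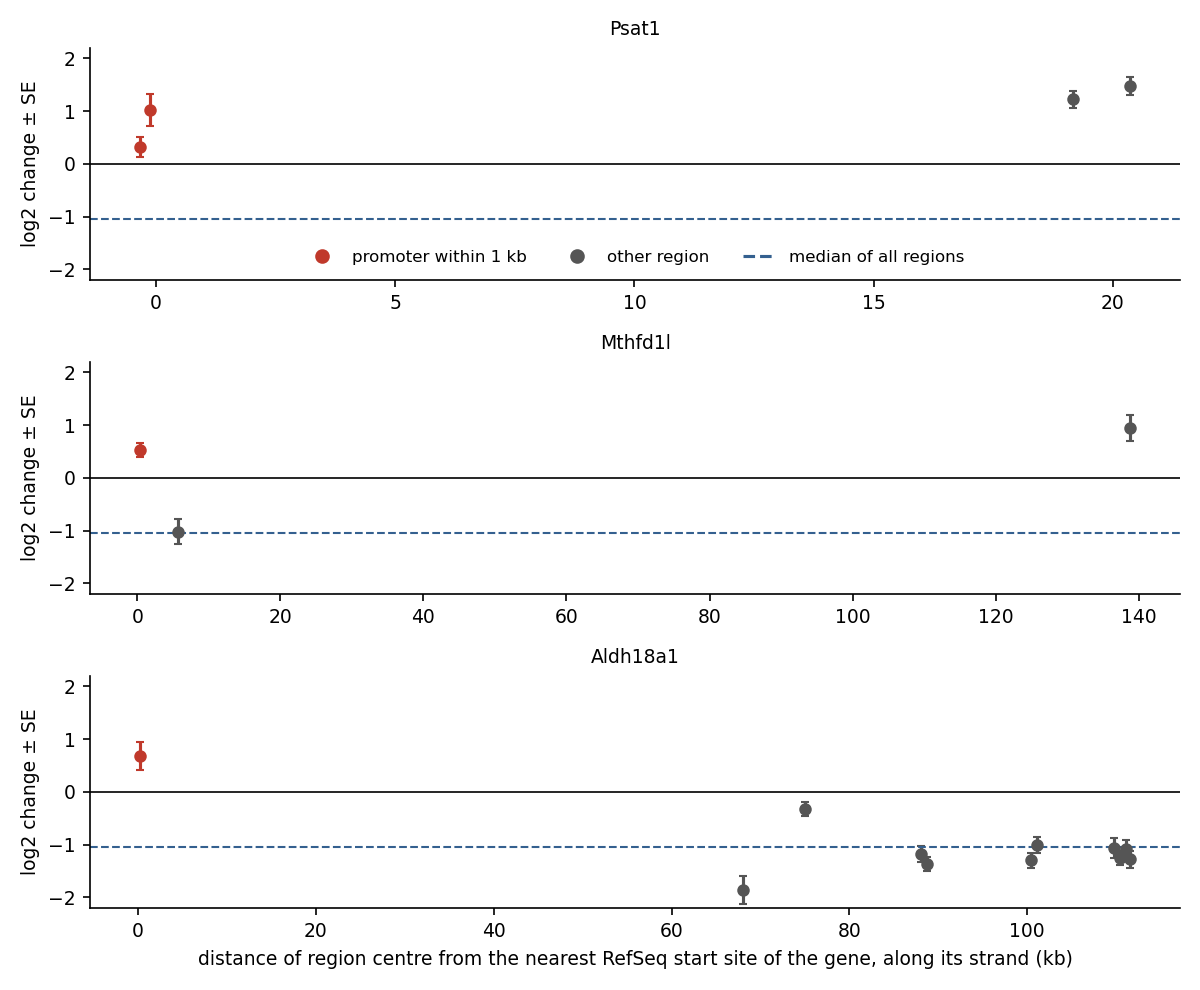
Points are regions of Psat1, Mthfd1l and Aldh18a1 at their distance from the nearest RefSeq start site in kb, against the log2 fold change, Cox10-/- over wild type on the deposited scale, with standard error bars. All regions of Psat1 lie above 0, Mthfd1l has 1 region below 0 near its start, and Aldh18a1 has its promoter above 0 and 10 far regions below it.

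Pycr1, which reduces the precursor to proline in mitochondria, had no region of its own. The nearest regions analysed here were the promoter of Notumos, 15608 bp away, which changed by -3.92 (log2), and an intergenic region named after Slc25a10, 128214 bp away.

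**Figure D3:**
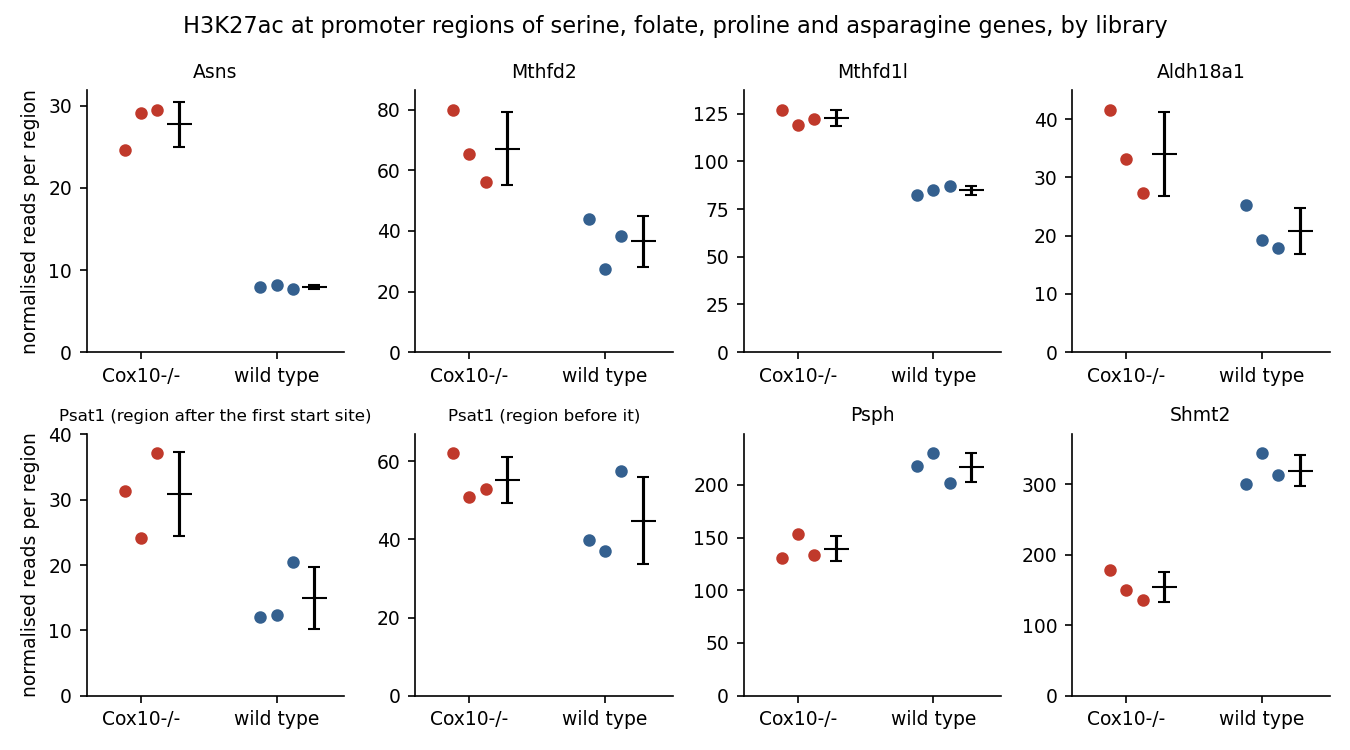
Dots are normalised reads per region in each library, Cox10-/- in red and wild type in blue, for the 8 promoter regions; the bar beside them is the mean and the SD of 3 libraries. Values of Asns, Mthfd2, Mthfd1l, Aldh18a1 and the Psat1 region after the first start site (before the second) separate with Cox10-/- above, those of Psph and Shmt2 with Cox10-/- below (on the centred scale Psph is higher), and the other Psat1 region overlaps.

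Motif letters in the upstream sequences were shared by few of these genes. The C/EBP-ATF response element (CARE) is a composite site bound by ATF4 with a C/EBP partner, known from human ASNS and CHOP promoters. Bases after the start site were not searched. The element was searched as TGATGNAAN on both strands in windows of the 250 bases before each start site. It was found in the windows of 2 of the 9 genes that have one, Asns and Pycr1, against 3.89% of 27025 genes. In Asns the letters TGATGAAAC stand 23 to 15 bp before the start site, and in Pycr1 the letters TGATGCAAT stand 103 to 95 bp before it. Aldh1l2 had no window, and the windows of Psat1, Mthfd2 and Aldh18a1, whose promoters gained H3K27ac, held no such letters.

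Of the other motifs, the cyclic AMP response element TGACGTCA was in 0 of the 9 genes against 1.77% of all genes. The E-box CACGTG, a site of Myc-like factors, was in Aldh18a1, 59 to 54 bp before the start site, against 6.86%. The antioxidant response core TGACNNNGC, a site of Nrf2, was in Asns and Phgdh on the opposite strand (172 to 164 and 53 to 45 bp before the start site) against 11.5%. No 2 of these 4 motifs overlapped in these windows. The 10 windows of the 9 genes had a median of 55.8% G and C and 11.5 CpG sites, against 52.4% and 6 over all 32851 windows. Shmt2, whose promoter fell on the deposited scale, had the lowest share of G and C among the sequences shown, 40.8%. Psph, whose promoter also fell on that scale and whose sequence is not shown, had the highest of the 10 windows, 67.2%.

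The regions that gained H3K27ac were mostly among the low promoter regions of the table. Sorted by the mean of the 6 libraries, 5 of the 8 promoter regions fell in the lowest of 4 equal bins of all promoter regions (15.9 to 61.4 normalised reads), where 3.18% of regions were called higher. Mthfd1l was in the next bin (1.05% higher), Psph in the third (0.601%) and Shmt2 in the highest (0.225%). The share of higher calls thus also moved with the level, and the part of level in the result was not tested.

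**Figure D4:**
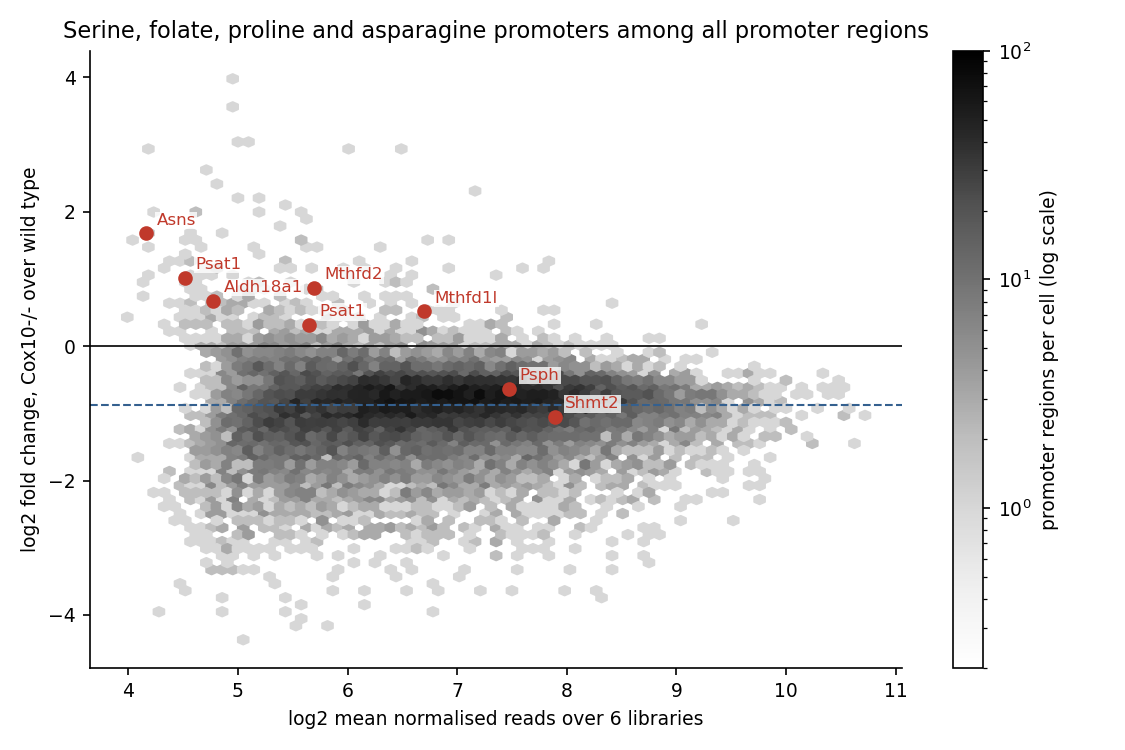
Grey cells count all 15980 promoter regions by the log2 of their mean normalised reads over 6 libraries and by their log2 fold change, Cox10-/- over wild type on the deposited scale, and red points are the 8 regions of serine, folate, proline and asparagine genes. Asns, Psat1, Aldh18a1, Mthfd2 and Mthfd1l lie above 0, and Psph and Shmt2 lie near the dashed median of -0.87 (on the centred scale Psph is higher).

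A rank within each library does not depend on its size factor. By normalised reads per kb, the main promoter region of Mthfd2 stood at percentile 72.4 to 93.1 of 9663 genes in Cox10-/- libraries, against 0.414 to 1.66 in wild-type libraries. Mthfd1l stood at 80 to 90.6 in Cox10-/- and 2.08 to 3.06 in wild-type libraries, Aldh18a1 at 42.6 to 80.9 and 0.486 to 1.22, and Psat1 at 43.3 to 66.6 and 0.973 to 5.37. Asns stood at 16.8 to 42.6 in Cox10-/- libraries and 0.0621 to 0.114 in wild-type libraries. In all 5 genes every Cox10-/- place was above every wild-type place. How many of the 9663 genes separate in this way was not counted. Psph, at 63.2 to 83.2 in Cox10-/- and 49.2 to 70.6 in wild-type libraries, and Shmt2, at 38.7 to 58 and 51 to 78.4, overlapped between genotypes. A region is listed only where a peak was called, and the sources used here do not say whether a peak in either genotype sufficed, so the low wild-type places are a description.

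The cytosolic relatives of the folate enzymes moved the other way in rank. Aldh1l1, the cytosolic counterpart of Aldh1l2, stood at percentile 5.92 to 8.57 in Cox10-/- libraries and 93.7 to 96.3 in wild-type libraries. Mthfd1, which carries the cytosolic folate activities in one protein, stood at 9.16 to 12.8 in Cox10-/- and 69.2 to 88.6 in wild-type libraries. Shmt1, the cytosolic serine hydroxymethyltransferase, stood at 4.27 to 4.59 in Cox10-/- and 22.3 to 43.2 in wild-type libraries.

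Ratios of a mitochondrial gene to its relative within a library were higher in Cox10-/- libraries for all 3 pairs that could be formed. The log2 ratio of main promoter regions for Mthfd1l over Mthfd1 was 0.08, -0.08 and 0.25 in Cox10-/- libraries, against -2.27, -2.35 and -2.36 in wild-type libraries, a difference of 2.41 (5.31-fold). For Mthfd2 over Mthfd2l, a mitochondrial paralogue, it was -0.16, -0.65 and -0.28 in Cox10-/- and -1.79, -2.38 and -1.43 in wild-type libraries, a difference of 1.50 (2.83-fold). For Shmt2 over Shmt1 it was 0.26, 0.07 and 0.10 in Cox10-/- and -0.74, -0.69 and -0.60 in wild-type libraries, a difference of 0.82 (1.76-fold). No pair overlapped, and each had an exact two-sided permutation p of 0.1, the smallest that 3 against 3 libraries allow (0.1 after adjustment over the 3). How often the ratios of other pairs of genes separate in this way was not counted. In the Shmt2 pair both promoters fell on the deposited scale, Shmt2 by less. The pairs of Aldh1l2 and Pycr1 could not be formed.

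Promoter regions over the other regions of the same gene were compared in 5 genes. The log2 ratio differed by 1.80 in Aldh18a1, 0.62 in Mthfd1l, 0.50 in Shmt2 and 0.48 in Psph, higher in every Cox10-/- library than in every wild-type library. In Psat1 it differed by -0.80, with every Cox10-/- library lower. Each of the 5 had an exact two-sided permutation p of 0.1, the smallest possible. Over the whole table promoter regions fell less than other regions, with median log2 changes of -0.87 and -1.28 on the deposited scale. The share of all genes whose ratio separates in this way was not counted.

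**Figure D5:**
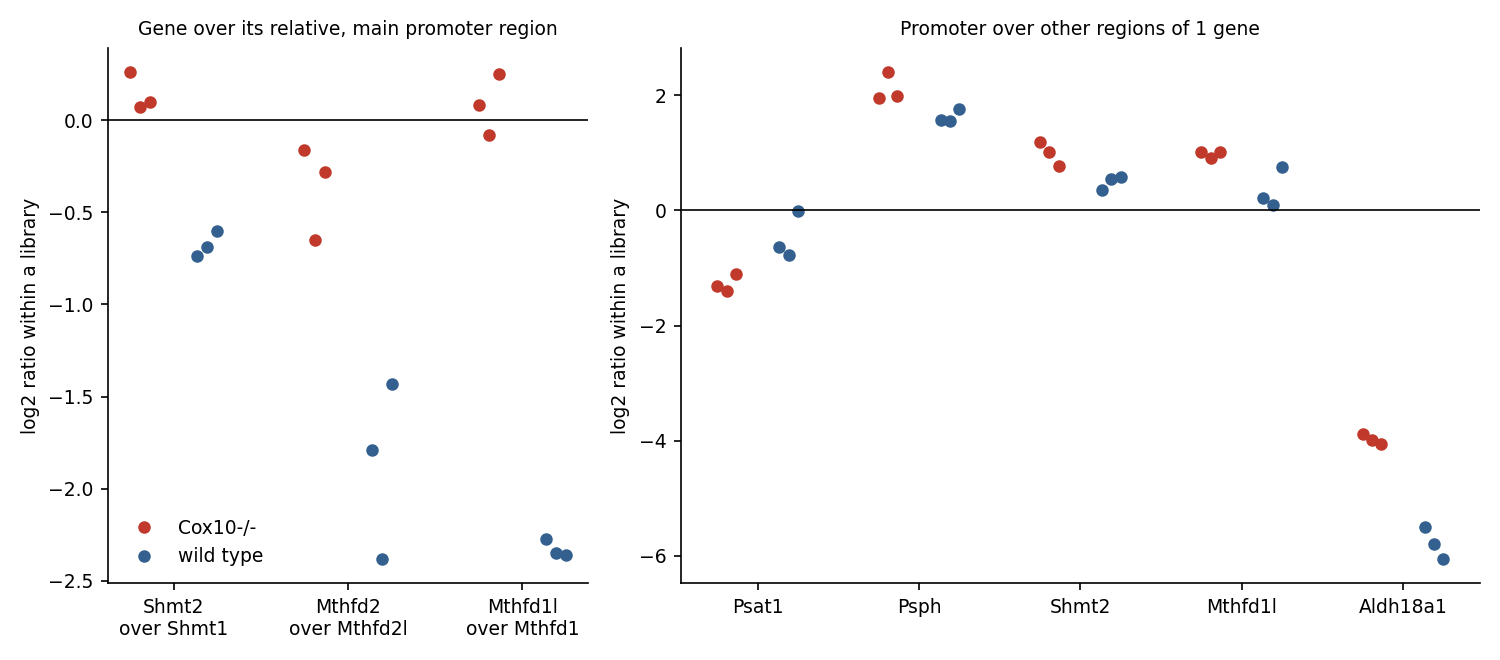
Dots are libraries, Cox10-/- in red and to the left of wild type in blue; the left panel plots the log2 ratio of the main promoter region of a gene to that of its relative, the right panel the log2 ratio of summed promoter regions to summed other regions of 1 gene. The genotypes separate in every column, and Psat1 is the column where the Cox10-/- libraries are lower.

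Summed over all regions of a gene, 4 of the 7 genes were higher and 3 lower on the deposited scale, beside 2.02% higher and 92.7% lower of 11240 genes. Asns (1.68), Psat1 (1.06), Mthfd2 (0.87) and Mthfd1l (0.28, log2) were higher. Shmt2 (-1.24), Aldh18a1 (-1.06) and Psph (-0.74) were lower. The Psat1 sum was 326, 275 and 286 normalised reads in Cox10-/- livers and 133, 134 and 157 in wild-type livers. The call for Mthfd1l (adjusted p = 0.0135) was lost without wild-type library 3 (0.21, adjusted p = 0.0983). On the centred scale 4 were higher and 2 lower, Shmt2 and Aldh18a1, beside 30.2% and 33.1% of all genes. The sum of Aldh18a1 is carried by the intergenic regions, and from its promoter alone the change was 0.68.

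Other genes of the pathways, counted at the main promoter region of each, mostly fell as most genes did. Over all 9663 genes with such a region the deposited scale gave 93.8% lower and 0.807% higher, and the centred scale 15.4% lower and 49.2% higher, with a median of 0.23. Of 15 other folate genes, mostly of cytosolic metabolism and transport but with the mitochondrial enzyme Mthfd2l and the mitochondrial carrier Slc25a32 among them, 15 were lower on the deposited scale, and 7 were lower and 3 higher on the centred one. Aldh1l1 changed by -2.30 (log2), Mthfd1 by -1.88, Shmt1 by -1.87, and Fpgs, which adds the glutamate tail to folates, by -1.80. Mthfs, which returns formyl folate to the pool, changed by -0.68 and Mthfd2l by -0.63, and both were among the 3 higher on the centred scale. Of 12 genes of glycine cleavage and serine breakdown 12 were lower on the deposited scale, and 9 were lower and 2 higher on the centred one. Agxt, the peroxisomal aminotransferase that handles glyoxylate and serine, had 34.2 ± 4.37 normalised reads in Cox10-/- livers and 208 ± 9.19 in wild-type livers (SD, n = 3 each). Sardh, which oxidises sarcosine, changed by -2.15. Dld (-0.81) and Sfxn1, the mitochondrial serine carrier (-0.71), were the 2 that were higher on the centred scale.

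The list of proline breakdown, other proline reductases and ornithine metabolism had 9 genes with a promoter region, of which 9 were lower on the deposited scale, and 7 were lower and 1 higher on the centred one. Prodh2, hydroxyproline dehydrogenase, held 36.5, 34.7 and 37.9 normalised reads in Cox10-/- livers and 466, 478 and 454 in wild-type livers, which is 12.5-fold lower. Otc, the ornithine transcarbamylase of the urea cycle, changed by -3.32. Odc1, which starts polyamine synthesis, changed by -0.25 and was the gene that was higher on the centred scale. Among 8 relatives of Asns in asparagine and glutamine metabolism 6 were lower on the deposited scale, and 4 were lower and 3 higher on the centred one. Gpt, alanine aminotransferase, changed by -1.72 and the asparaginase Aspg by -1.61. Asnsd1 (-0.35, not called) and Asrgl1, another asparaginase (-0.52), were higher on the centred scale.

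Genes of nucleotide synthesis and of methionine, transsulfuration and glutathione metabolism were mostly lower on the deposited scale. Of 11 genes of nucleotide synthesis 11 were lower there, and 3 were lower and 4 higher on the centred scale. Paics, a purine enzyme, changed by -1.70 and Adssl1 by -1.57, while Adss (-0.67) and Dhodh (-0.69) were higher on the centred scale. Among 8 genes of methionine, transsulfuration and glutathione metabolism the deposited scale gave 7 lower and 1 higher, and 2 were lower and 5 higher on the centred scale. Gss, glutathione synthetase, was the higher one, with 43.8 ± 3.01 normalised reads in Cox10-/- livers and 28.7 ± 2.99 in wild-type livers (SD, n = 3 each; limma adjusted p = 0.0078). Cbs, which joins homocysteine to serine, changed by -2.35 and Cth by -1.56. Gclc, of the first step of glutathione synthesis, changed by -0.52 and was higher on the centred scale.

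Of 35 other regulators and targets of ATF4 with a promoter region, 5 were higher and 22 lower on the deposited scale, and 28 were higher and 1 lower on the centred scale, where their median was 0.71. Trib3, a pseudokinase induced by ATF4 and CHOP, held 247, 217 and 188 normalised reads in Cox10-/- livers, against 117, 115 and 81.8 in wild-type livers, a change of 1.06 ± 0.12 (log2, SE). Myc changed by 0.36. The other 3 that were higher on both scales were Slc7a1, a cationic amino acid carrier (1.83), Nupr1, a stress-induced chromatin protein (1.16), and Lonp1, a mitochondrial protease (0.55), which were named after their values were seen. Slc38a2, a carrier of neutral amino acids, changed by -1.30 and was the 1 gene lower on the centred scale. No region named after Atf4 itself was analysed here.

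Markers of liver cell types were measured in the same table, and their part in the results above was not tested. All 12 hepatocyte markers had a promoter region, and all were lower on the deposited scale, beside 93.8% of all genes with a promoter region. Their summed level was 2012 to 2373 normalised reads in Cox10-/- libraries and 7748 to 8042 in wild-type libraries. After centring 11 of the 12 were lower, beside 15.4% of all genes with a promoter region. Of 11 macrophage and Kupffer cell markers 3 (Cd68, Cd14 and Cx3cr1) had a promoter region, with a summed level of 408 to 455 in Cox10-/- and 366 to 404 in wild-type libraries, while Adgre1, Clec4f, Csf1r and the other 5 had no region. These 3 did not move together. Cd14, a receptor for bacterial lipopolysaccharide that hepatocytes can also make, held 316, 341 and 284 normalised reads in Cox10-/- livers and 140, 140 and 142 in wild-type livers, a change of 1.15 ± 0.10 (log2, SE), beside promoter gains of 0.87 for Mthfd2 and 1.02 for Psat1. Cx3cr1 changed by -1.23 (called lower) and Cd68 by -0.09 (not called). Among 9 endothelial markers 1 had a promoter region (19.7 to 35.7 in Cox10-/- and 23.9 to 35.6 in wild-type libraries), and among 9 stellate markers 0 had one. Of 7 biliary markers 2 had a promoter region, with 178 to 201 in Cox10-/- and 416 to 434 in wild-type libraries, and of 7 erythroid markers 1, with 127 to 144 in Cox10-/- and 226 to 237 in wild-type libraries. Of 7 lymphocyte markers 0 had a promoter region. In whole tissue, fewer cells of a type and less of the mark per cell cannot be told apart.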

How the data were processed

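For Cox10-/- and for wild-type regenerating mouse liver, 3 H3K27ac libraries each were analysed, and 6 input libraries were not used. Whether the 3 libraries of a genotype came from separate livers is not stated in the labels. The 10 genes, the pathway and marker lists and the tests were chosen with earlier results of these data known. Chromatin of a spike-in went into each immunoprecipitation, per the labels' protocols. The submitters' processing notes name mm10 as the build and list deepTools 3.5.0, MACS and BWA 0.7.5 without their roles. The signal values the authors deposited, normalised reads per region, equal whole reads divided by 1 size factor per library: 100% were whole within 0.01 reads, with factors of 1.18, 1.24 and 1.32 in Cox10-/- and 0.752, 0.73 and 0.782 in wild-type libraries. The deposited table also gives the authors' log2 fold changes, p-values and a test score (statistic), of which only the first 2 kinds are quoted, where named. Of 36446 regions, 59 exact repeats were dropped; chromosome 16 was not analysed here. The base from which its coordinates count is not stated.

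The main test was limma's (3.58.1, R 4.3.3; variance trend, no block, no filter) on log2(value + 1) per region, which understates changes of low regions, and gene sums likewise over 11240 genes; the fit was tested on simulated data. The main promoter region of a gene is the one with the highest mean. Ratios within a library used exact two-sided permutation tests. Alternatives were pseudocounts of 0.5 and 8, a filter, a threshold of 0.01, a replicate block, other centrings, 1 library left out at a time, and count tests of the recovered reads with DESeq2 1.42.0 and edgeR 4.0.16. Some list genes and neighbouring regions are not reported here. Named genes are the 10 genes, their relatives, Cox10, and up to 2 genes per direction of each list with the smallest adjusted p on the centred scale. Pairs of libraries of 1 genotype differed by slightly more than counting noise (chi-square per degree of freedom 1.06 to 1.19, against 10.2 to 10.6 between genotypes) and were kept as separate replicates. Upstream sequences are RefSeq's for GRCm38.p6, matched by symbol for 9 of the 10 genes.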

Additional observations from a re-analysis of the deposited data

How the results depend on the processing

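The counts of 15 lower and 8 higher regions on the deposited scale stayed within 1.5 times under every setting run except the removal of the 10 intergenic regions named after Aldh18a1, chosen after seeing the data, which left 5 lower and 8 higher of 14. Leaving out 1 library gave 14 to 15 lower and 7 to 9 higher. On the centred scale the 3 lower regions became 1 without those 10 regions, 6 when libraries were centred on the median promoter region, and 1 to 5 when 1 library was left out (5 without Cox10-/- library 1, 1 without Cox10-/- library 3), while 11 regions were higher whichever library was left out. These 3 lower calls are the second Shmt2 region and 2 intergenic regions named after Aldh18a1. Of the gene sums on the centred scale 2 were lower, 0 when promoter regions alone were summed and 1 to 2 when 1 library was left out (1 without wild-type library 3). The sum of Aldh18a1 changed direction when promoter regions alone were counted, to 0.68 on the deposited scale and 1.54 on the centred scale. Over single regions and settings, 304 of 312 on the deposited scale kept their direction and side of the threshold, 7 lost the call and 1 gained it, and on the centred scale 324 of 336 did, 5 lost it and 7 gained it. The Aldh18a1 promoter call was lost without Cox10-/- library 1 (0.53), with DESeq2 (0.71) and at an adjusted p of 0.01 (0.68). Equal replicate numbers did not pair the libraries (correlations of deviations -0.001, 0.007 and 0.005), and a replicate block gave 15 lower and 8 higher. Where a value changed, the cause was not tested. Asns rests on 6 reads per wild-type library, which limits its fold change.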
